A study of Populus ussuriensis with 20 samples.

Results

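RNA came from the basal ends of stem cuttings of the poplar Populus ussuriensis. In every library at every time, 51 of 39538 gene models were higher in plants overexpressing PuHox52 than in wild-type plants. After 29 of these were left out by position or name, the 22 genes described here remained. They were chosen by these same values. Counts were divided by the library's summed count and expressed as CPM, the count per 1000000 counts of the library, and a gene was taken when, at each of 6, 12, 24, 48 and 96 h after cutting, both overexpressing libraries lay strictly above both wild-type libraries of that time. This comparison was met by 51 genes, of which 28 start within the first 2.3 Mb of chromosome 13, where 228 of the 241 genes tested were above 0 in the average log2 difference (median 0.21), and 1 was Potri.014G103000.v3.0. These 29 were left out. The 22 that remain are 0.0674% of the 32648 gene models with a count once the left-out genes are set aside. The mirror image, lower in the overexpressor at every time, was met by 33 genes (0.101%).

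Each group held 2 libraries, each from 40 cuttings, of wild type (WT) or of PuHox52-OE plants, which carry PuHox52 behind the 35S promoter (OE), at 1 of the 5 times. RNA came from the lowest 0.5 cm of the cutting, a mixture of stem tissues, so a change in the number of cells of a type and a change in RNA per cell cannot be told apart. The plants' age is given as 2 weeks in the series text and as 4 weeks in the growth protocol, and the labels do not state how many transgenic lines were used. No uncut stem is among the samples, and no gene model could be tied to PuHox52, so its overexpression was not checked in the counts. Library totals ranged from 10399262 to 27472303 counts. In each group the paired libraries were further apart than sampling noise allows, with a chi-square of 4.04 to 14.3 for each degree of freedom, and p-values measure only the spread between such pairs.

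Adventitious roots arise from stem or leaf tissue and not from another root, and in cuttings they start from cells near the vascular cambium at the wounded base. Auxin moving down the stem, wound signals such as jasmonate, and a succession of transcription factors are known to act in the first hours and days. PuHox52 belongs to the homeodomain-leucine zipper proteins, transcription factors particular to plants that bind DNA as dimers. The 35S promoter of cauliflower mosaic virus is active in most plant cells at all times. The question put to these genes was how large and how steady their difference was, and how they behaved as the cuttings aged. The files do not pair gene IDs with names or products, so the genes are given by ID and position, in the coordinates of the deposited tables, and no function is assigned to any of them.

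The differences were mostly small. Averaged over the 5 times, the log2 fold change of OE over WT in the 22 genes ranged from 0.09 to 1.5 with a median of 0.39, where the median of all 26391 genes tested was 0.01. Only 3 genes were at least 2-fold higher on average, 6 at least 1.5-fold and 14 at least 1.2-fold, so that the other 8 differed by less than 1.2-fold. Since the rule fixed the sign of these differences, they are given as a description and without a test. By time, the medians over the 22 genes were 0.34, 0.26, 0.41, 0.30 and 0.32 at 6, 12, 24, 48 and 96 h. The largest difference of a gene fell at 96 h in 7 genes, in 6 each at 6 and 24 h, in 3 at 12 h and in none at 48 h.

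**Figure D1:**
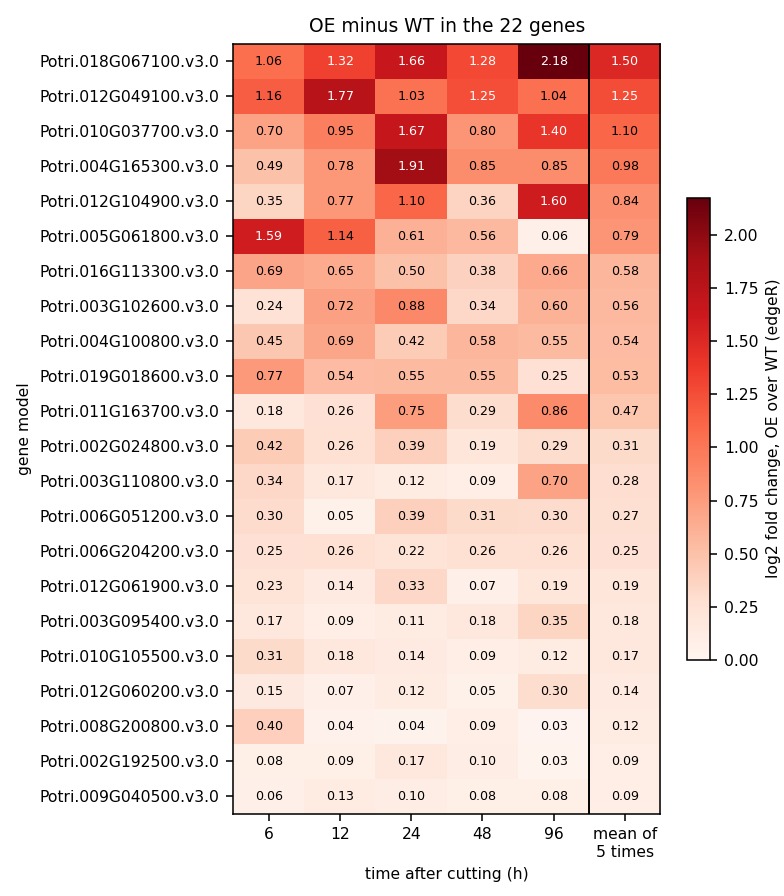
Log2 fold change of OE over WT (edgeR, 2 libraries per group) for each of the 22 genes at 6, 12, 24, 48 and 96 h after cutting and, right of the line, for the mean of the 5 times. Rows are ordered by that mean, from 1.5 to 0.09, and the colour scale starts at 0. A reader should see a few genes with large differences on top and, in the lower part, small values at every time.

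The gene with the largest average difference was Potri.018G067100.v3.0 (chromosome 18, 8539804 to 8542916, minus strand). In WT its level was 0.769 and 1.43 CPM at 6 h, and at the later times in turn 1.39 and 0.874, 0.815 and 0.594, 1.02 and 1.04, then 0.777 and 0.38. In OE it was 1.89 and 2.93, 2.74 and 3.01, 2.26 and 2.25, 2.4 and 2.61, and 1.98 and 3.58 CPM at the same times. Every OE library, at any time, lay above every WT library of any time. The average log2 fold change was 1.5 (SE 0.18), or 2.82-fold, and the difference was smallest at 6 h (1.06, SE 0.41) and largest at 96 h (2.18, SE 0.41). The gene was rare, with 6 to 93 counts per library, so each single value carries a wide counting error.

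Second was Potri.012G049100.v3.0 (chromosome 12, 4630629 to 4632581, minus strand), at 6 to 47 counts per library. Its WT libraries held 0.962 and 0.904 CPM at 6 h, and at the later times in turn 0.841 and 0.218, 0.896 and 0.528, 0.95 and 0.75, then 0.833 and 0.443. The OE libraries held 2.16 and 2.03, 1.87 and 1.74, 1.18 and 1.8, 1.49 and 2.55, and 1.25 and 1.54 CPM. Here too the lowest OE library of any time stood above the highest WT library of any time. The average log2 fold change was 1.25 (SE 0.22), with the largest value at 12 h (1.77, SE 0.47).

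The most abundant of the 22 was Potri.006G204200.v3.0 (chromosome 6, 21963400 to 21964519, plus strand), with a mean of 432 FPKM, the authors' value corrected for gene length, rank 153 among the genes tested. It had 3238 to 8335 counts per library, so that counting error was small. WT libraries held 342 and 387 CPM at 6 h, and at the later times in turn 268 in both, 275 and 259, 237 and 220, then 207 and 212. OE libraries held 429 and 440, 331 and 321, 322 and 314, 267 and 277, and 268 and 258 CPM. The gene fell in both genotypes from 6 to 96 h while OE stayed above WT by nearly the same ratio throughout. Its log2 fold change of OE over WT was 0.25, 0.26, 0.22, 0.26 and 0.26 at the 5 times (SE 0.09 at each), and 0.25 on average (SE 0.04), or 1.19-fold.

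Next in CPM was Potri.002G192500.v3.0 (chromosome 2, 15349591 to 15353864, minus strand), with 1889 to 5380 counts per library. WT libraries held 260 and 265 CPM at 6 h, and at the later times in turn 189 and 177, 154 and 157, 153 and 164, then 176 and 170, and OE libraries held 290 and 268, 202 and 193, 184 and 172, 164 and 174, and 182 and 188. The groups were apart only narrowly, and at 48 h the lower OE library exceeded the higher WT library by a ratio of 1.001. The average log2 fold change was 0.09 (SE 0.04). A gene model on the opposite strand, Potri.002G192400.v3.0, overlaps it at one end, from 15349591 to 15349984. As the strand setting of the counting is not given in the sources used here, reads of the pair in that stretch cannot be told apart.

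**Figure D2:**
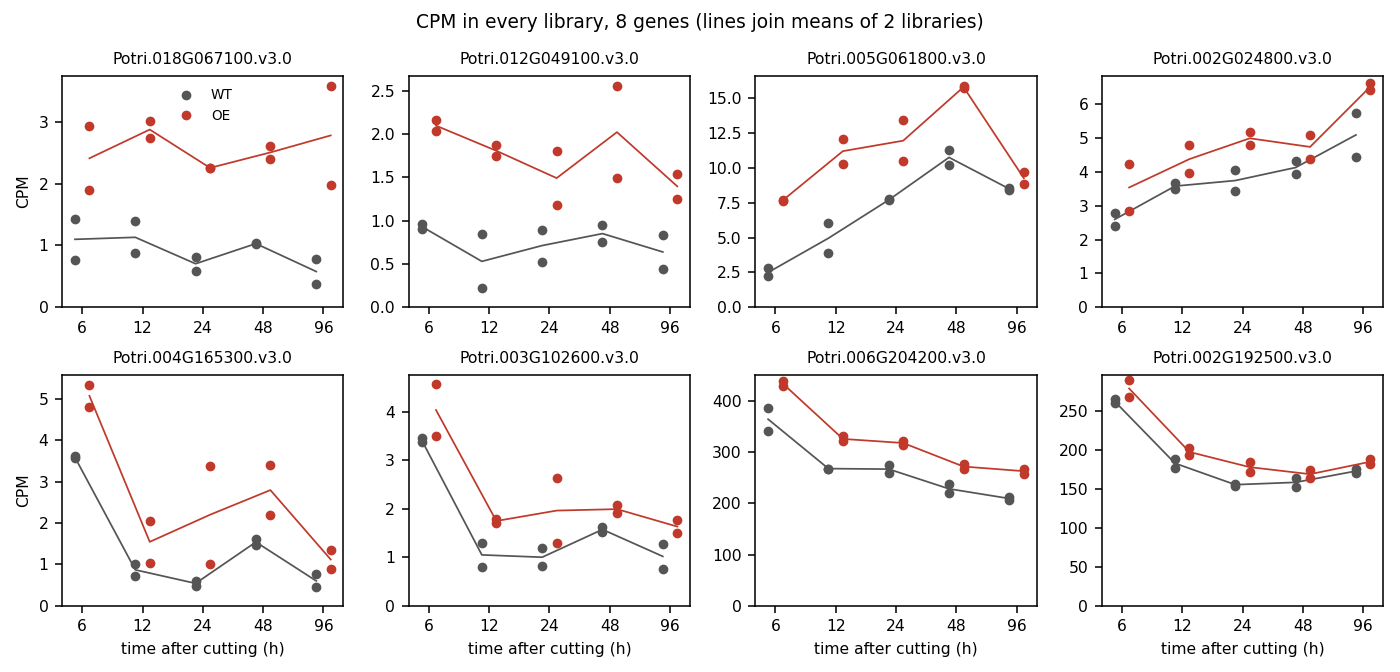
CPM of 8 of the 22 genes in each of the 20 libraries against time after cutting, with WT in grey and OE in red, slightly offset. Lines join the means of 2 libraries, axes start at 0 and differ between panels. OE points lie above WT points of the same time in every panel, as the rule required, while the gap runs from wide (Potri.018G067100.v3.0) to barely visible (Potri.002G192500.v3.0).

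How far inside the rule a gene lay was measured by the smallest ratio, over the 5 times, of the lowest OE library to the highest WT library. It was at least 1.1 in 5 genes, which are Potri.018G067100.v3.0 (1.32), Potri.012G049100.v3.0 (1.32), Potri.010G037700.v3.0 (1.16), Potri.019G018600.v3.0 (1.12) and Potri.006G204200.v3.0 (1.11). Just inside were Potri.010G105500.v3.0 and Potri.002G192500.v3.0, both at 1.001. Just outside were Potri.018G139900.v3.0 at 0.9992, missed at 24 h, and Potri.001G002300.v3.0 at 0.9963, missed at 6 h. These values describe the rule's edge and carry no test.

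Scaling decided membership for 10 of the 22. With CPM scaled by edgeR's TMM factors, with median-of-ratios factors, or with the normalized values the authors deposited, the same rule was met by 13 genes each time. The same 12 of the 22 were among them under all 3, with a median average log2 fold change of 0.57 and a lowest of 0.25. The 10 that dropped out included 8 of the 9 genes of smallest average difference. They also included Potri.005G061800.v3.0, with an average of 0.79, whose groups came close at 96 h, and Potri.004G100800.v3.0, the rarest at 5 to 25 counts per library. The TMM factors ran from 0.964 to 1.027 in WT libraries and from 0.969 to 1.04 in OE libraries.

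**Figure D3:**
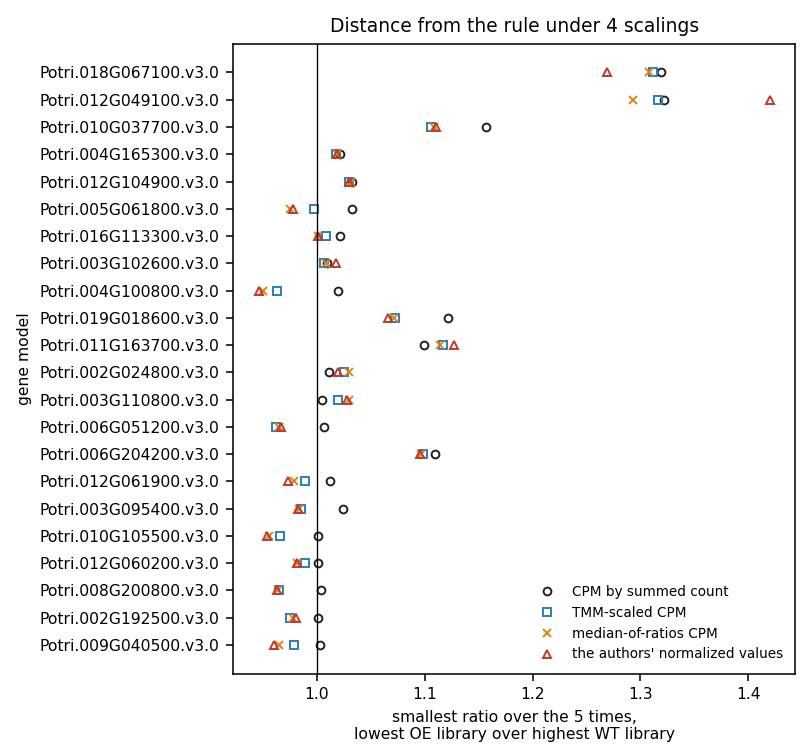
Smallest ratio over the 5 times of the lowest OE library to the highest WT library for each of the 22 genes, under 4 ways of scaling libraries. The vertical line marks 1, below which a gene no longer meets the rule, and genes are ordered by average difference. All circles (CPM by summed count) lie right of the line, while the other marks of 10 genes lie left of it.

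Because the rule used all libraries, the difference itself can be tested only at a time that did not take part in the choice. Genes were therefore chosen by 4 of the 5 times and looked at in the fifth. With 6 h left out, 109 genes that were tested met the rule at the other times, and 22 of them (20.2%), the final members, were also separated at 6 h with OE above. Of all genes tested with the left-out genes removed, 21.3% were so separated at 6 h. With OE below, 32 of the 109 were separated at 6 h. The like counts were 14 of 97 at 12 h and 2 of 45 at 24 h. At 48 h there were 11 of 95, and at 96 h 2 of 43. The share of all genes separated with OE below was not counted, so these counts have no background. With 12 h left out the share with OE above was 22.7% of 97 genes against 21.1% of all. With 48 h left out it was 23.2% of 95 against 14.8%. The numerator was the same 22 members at each time left out. The shares thus differ only in how many genes met the rule at the other 4 times. In percentage points the shares stood further above the background for 24 and 96 h. They were 48.9% of 45 genes against 25.5% at 24 h, and 51.2% of 43 against 34.1% at 96 h. As a ratio, the share at 96 h was no further above its background than that at 48 h. The ratio of the authors' normalized values to CPM fully separated the genotypes at 24 and 96 h alone. It was 16.96 and 16.65 in OE against 17.37 and 17.39 in WT at 24 h. At 96 h it was 16.48 and 16.11 in OE against 17.35 and 17.53 in WT. CPM thus set OE higher relative to WT at both times than the normalized values did. A library's ratio applies to every gene in it, and so to the background shares as well. At 48 h it was 16.85 and 16.33 in OE against 16.68 and 16.48 in WT. Whether scaling bears on the shares, or whether they hold under another scaling, was not tested.

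**Figure D4:**
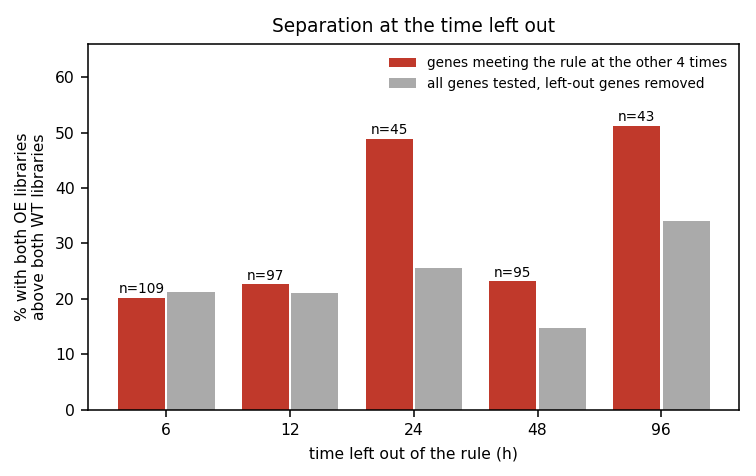
Share of genes with both OE libraries above both WT libraries at the time left out of the rule. Red bars are genes that met the rule at the other 4 times (n above the bar) and grey bars are all 26149 genes tested once the left-out genes are removed. Red and grey are close at 6 and 12 h (20.2 and 21.3%, 22.7 and 21.1%), and red is higher at 24, 48 and 96 h. The same 22 genes are the numerator of every red bar.

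The median log2 fold change of the chosen genes was -0.10, -0.04, 0.15, 0.01 and 0.08 for 6, 12, 24, 48 and 96 h in turn, beside medians of all genes between -0.01 and 0.01. Calls were made with the quasi-likelihood test of edgeR at a Benjamini-Hochberg adjusted p under 0.05 over all genes tested. It called 2 of the 109 genes higher at 6 h (1.83%, background 0.352%) and 6 lower (5.5%, background 0.685%). At 12 h it called 1 of 97 higher (1.03%, background 0.199%), at 24 h 0 of 45 (background 0.302%, with 11 at an unadjusted p under 0.05, and 1 by DESeq2) beside 1 lower (2.22%, background 0.436%), at 48 h 0 of 95 (background 0.0115%, with 6 at an unadjusted p under 0.05, and 0 by DESeq2) and at 96 h 3 of 43 (6.98%, background 1.06%). At 12, 48 and 96 h edgeR and DESeq2 each called 0 of the chosen genes lower (backgrounds 0.195%, 0.0344% and 0.421%), with 10, 0 and 0 genes lower at an unadjusted p under 0.05. At 6 h 10 of the 109 were higher and 24 lower at that unadjusted threshold, and DESeq2 called 3 higher and 9 lower. The counts higher at that threshold were 8 at 12 h and 11 at 96 h, and 2 genes were lower at 24 h. The share of all genes at the unadjusted threshold was not counted, so these numbers have no background. By the rule, a chosen gene separated with OE above at the time left out is a member. It was thus nearly fixed in advance that the genes edgeR called higher would be members, and all were. They were Potri.005G061800.v3.0 at 6 and 12 h, Potri.008G200800.v3.0 at 6 h, and Potri.003G110800.v3.0, Potri.012G104900.v3.0 and Potri.018G067100.v3.0 at 96 h. Single libraries moved these counts, and leaving one out also lengthened the list of chosen genes. The 2 calls at 6 h became 0 without WT 6 h replicate 1, but 4 without OE 12 h replicate 1. They became 1 without WT 6 h replicate 2, OE 6 h replicate 1, either WT library at 24 h or any library at 48 or 96 h. The 1 at 12 h became 0 without OE 12 h replicate 2 or WT 12 h replicate 1, and 2 to 4 without WT 6 h replicate 1, either OE library at 6 h or OE 48 h replicate 2. The 0 at 24 h became 1 to 3 without WT 6 h replicate 2, either OE library at 6 h, either WT library at 12 h, OE 24 h replicate 1 or OE 48 h replicate 1. The 3 at 96 h became 0 without replicate 2 of either genotype at 96 h, and 5 or 6 without OE 6 h replicate 2, WT 12 h replicate 1 or OE 48 h replicate 1.

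The rule compared genotypes within a time and not times within a genotype, so the time course was tested. Still, the rule chose on values of these same libraries, so the tests are not wholly independent of the choice. How far this bears on the calls was not tested. From 6 to 96 h in WT, 10 of the 22 genes were called lower (45.5%, background 30.2%) and 6 higher (27.3%, background 30.2%). The median log2 fold change was -0.57 over the 22 genes and 0.03 over all genes tested. In OE, 8 were called lower (36.4%, background 28.9%) and 4 higher (18.2%, background 31.1%), with medians of -0.06 and 0.05. The 8 that fell in OE were all among the 10 that fell in WT, and 3 genes rose in both. In OE the 4 higher calls became 2 without OE 6 h replicate 1. The highest group mean fell at 6 h in 12 of the 22 genes in WT (54.5%, against 32.7% of all genes tested) and in 10 in OE (45.5% against 32.9%).

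Any change over the 5 times was called for 16 of the 22 genes in WT (72.7%, background 69.3%) and for 14 in OE (63.6%, background 63.5%), shares near those of all genes. Times of 6 and 96 h also differ in hour of the day under the light cycle of 16 h light and 8 h dark, whereas 24 and 96 h share the hour. Between 24 and 96 h few of the 22 changed. In WT 2 were called lower (9.09%, background 15.5%) and 0 higher by edgeR (background 14.8%; 2 at an unadjusted p under 0.05, 0 by DESeq2, and 1 without WT 96 h replicate 2). In OE 2 were called lower (9.09%, background 13.8%) and 2 higher (9.09%, background 12.7%), the latter Potri.003G110800.v3.0 and Potri.012G060200.v3.0. The genes that fell in both genotypes from 24 to 96 h were Potri.006G204200.v3.0 and Potri.006G051200.v3.0. In WT these falls were both lost without WT 24 h replicate 1 or WT 96 h replicate 1, and 1 remained without WT 96 h replicate 2. In OE the 2 lower calls became 1 without OE 24 h replicate 1 or OE 96 h replicate 2. The 2 higher calls in OE were 0 with DESeq2, without a filter on low counts and in the libraries of the groups compared alone. They became 1 without replicate 2 of either genotype at 24 h, and 0 without either WT library at 6 h, WT 12 h replicate 1, OE 24 h replicate 1, or any library at 48 h or OE library at 96 h.

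**Figure D5:**
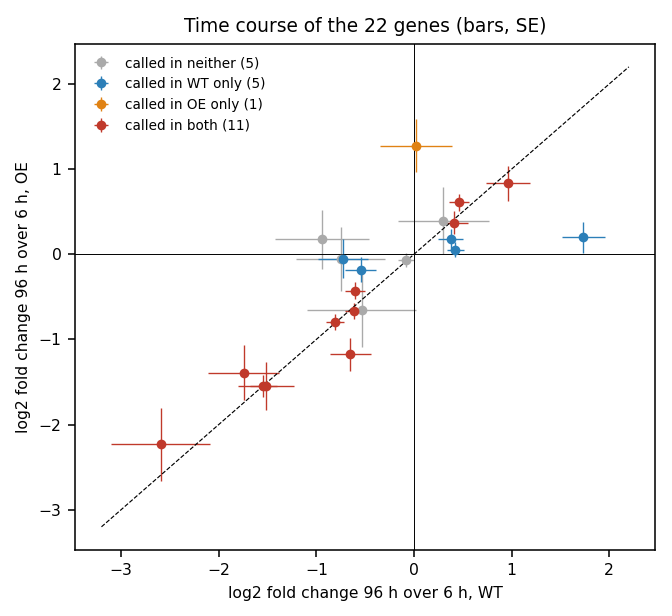
Log2 fold change from 6 to 96 h in WT (x axis) and OE (y axis) for the 22 genes, with SE bars and the line of equal change dashed. Colours show in which genotype edgeR called the change (adjusted p under 0.05). Most points lie near the line, 11 are called in both genotypes, and Potri.005G061800.v3.0 stands apart at the right with 1.73 in WT and 0.20 in OE. Also well off the line are Potri.012G104900.v3.0 (0.02 in WT and 1.27 in OE, called in OE only) and Potri.018G067100.v3.0 (-0.95 and 0.17, called in neither).

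The steepest rise in WT belonged to Potri.005G061800.v3.0 (chromosome 5, 4330255 to 4400743, minus strand), the longest gene model of the 22 at 8847 bases. WT libraries held 2.21 and 2.79 CPM at 6 h, and at the later times in turn 3.87 and 6.04, 7.74 and 7.66, 10.2 and 11.3, then 8.44 and 8.54. OE libraries started at 7.6 and 7.72 at 6 h, went through 10.3 and 12.1, 13.4 and 10.5, and 15.9 and 15.7, and ended at 8.82 and 9.7 at 96 h. By CPM, the OE libraries at 6 h thus already stood where the WT libraries stood at 24 h, and the genotypes nearly met at 96 h. In the authors' FPKM the gap at 6 h was smaller in ratio, at 1.09 and 1.31 in OE against 0.619 in both WT libraries. The WT libraries held 1.44 and 1.24 FPKM at 24 h, and 1.46 and 1.53 at 96 h, so their rise was smaller too. From 6 to 96 h the log2 fold change was 1.73 in WT (SE 0.22, adjusted p 4.92e-06) and 0.20 in OE (SE 0.18, adjusted p 0.353) by the same edgeR test. The difference of OE over WT shrank from 1.59 at 6 h (SE 0.22) through 1.14, 0.61 and 0.56 to 0.06 at 96 h (SE 0.18). Whether it changed over the times was not tested, since the rule used the same contrast.

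Second in rise was Potri.002G024800.v3.0 (chromosome 2, 1560797 to 1563720, minus strand). WT libraries held 2.79 and 2.41 CPM at 6 h, and at the later times in turn 3.49 and 3.68, 4.07 and 3.43, 3.94 and 4.33, then 4.44 and 5.76. OE libraries held 2.86 and 4.23, 3.97 and 4.8, 5.19 and 4.81, 4.38 and 5.11, and 6.63 and 6.43 CPM. Both genotypes were highest at 96 h, with OE a little above WT. The log2 fold change from 6 to 96 h was 0.96 in WT (SE 0.23, adjusted p 0.00159) and 0.83 in OE (SE 0.21, adjusted p 0.00239) by the same edgeR test. The OE call was lost without OE 6 h replicate 1 (adjusted p 0.0714).

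The steepest fall in WT was that of Potri.004G165300.v3.0 (chromosome 4, 18585424 to 18586392, minus strand), the shortest of the 22 at 969 bases. WT libraries held 3.56 and 3.61 CPM at 6 h, and at the later times in turn 1.01 and 0.728, 0.489 and 0.594, 1.46 and 1.62, then 0.444 and 0.759. OE libraries held 5.34 and 4.8, 1.03 and 2.06, 1.02 and 3.38, 2.19 and 3.4, and 0.887 and 1.35 CPM. Both genotypes were highest at 6 h and stood higher again at 48 h than at 24 h in WT, while the OE libraries at 24 h were far apart. From 6 to 96 h it fell by 2.59 on the log2 scale in WT (SE 0.51, adjusted p 0.000342) and by 2.23 in OE (SE 0.43, adjusted p 0.000315) by the same edgeR test.

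Potri.003G102600.v3.0 (chromosome 3, 12807848 to 12813611, minus strand) followed a similar course. WT libraries held 3.46 and 3.39 CPM at 6 h, and at the later times in turn 1.3 and 0.801, 0.815 and 1.19, 1.53 and 1.62, then 1.28 and 0.759. OE libraries held 4.58 and 3.5, 1.71 and 1.79, 1.3 and 2.63, 1.92 and 2.07, and 1.77 and 1.5 CPM. Its drop came between 6 and 12 h in both genotypes. By the same edgeR test it fell by 1.74 in WT (SE 0.36, adjusted p 0.000594) and by 1.39 in OE (SE 0.32, adjusted p 0.00153) on the log2 scale from 6 to 96 h.

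Both abundant genes fell as well. Potri.006G204200.v3.0 changed by -0.81 in WT (SE 0.09, adjusted p 1.63e-06) and by -0.80 in OE (SE 0.09, adjusted p 2.19e-06) from 6 to 96 h by the same edgeR test. Potri.002G192500.v3.0 changed by -0.62 in WT (SE 0.09, adjusted p 2.18e-05) and -0.67 in OE (SE 0.09, adjusted p 1.03e-05). The genes of largest genotype difference were not called in either genotype. Potri.018G067100.v3.0 stood at -0.95 in WT (SE 0.48, adjusted p 0.102) and 0.17 in OE (SE 0.35, adjusted p 0.686), a sign that turned without OE 6 h replicate 1 or OE 96 h replicate 2. Potri.012G049100.v3.0 stood at -0.54 (SE 0.56, adjusted p 0.422) and -0.65 (SE 0.43, adjusted p 0.204).

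In position the 22 genes were scattered over 13 chromosomes, with 4 on chromosome 12 and 3 on chromosome 3. The closest pair, Potri.012G060200.v3.0 and Potri.012G061900.v3.0, lay 286 kb apart, and no gene had another of the 22 among the 5 tested genes on either side. Those neighbours, 220 in all, were above 0 in the average difference of OE over WT in 56.4% of cases, against 54.2% of all genes tested. Their medians ranged from -0.05 to 0.08 around single genes. The most neighbours above 0 were the 9 of 10 around Potri.016G113300.v3.0 (median 0.08), followed by the 8 of 10 around Potri.008G200800.v3.0 (median 0.055). On the minus strand lay 17 of the 22 (77.3%, against 49.8% of the genes tested), and 16 of the 33 genes lower in OE at every time. Strand was noticed after the values were seen and was not tested.

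Gene models of the 22 had a median length of 2250 bases (1836 over all genes tested) and a median level of 4.11 FPKM (8.8 over all genes tested). All 22 passed the filter on low counts, although Potri.004G100800.v3.0 had a mean of 0.726 CPM. That gene is overlapped on the opposite strand by Potri.004G100700.v3.0, which had a mean of 47.9 CPM and an average log2 fold change of -0.06 (SE 0.04), so its few counts are uncertain. Potri.005G061800.v3.0 contains Potri.005G062100.v3.0 on the same strand, which had 1 count over all libraries.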

How the data were processed

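RNA of 20 libraries was sequenced as 125-bp paired-end reads. The submitters' processing notes list HTSeq 0.6.0 and TopHat2 2.1.1 without a role or order, and neither genome build nor strand setting is given in the sources used here. Per the file headers, the authors deposited 3 values for each of 39538 gene models in each library, namely counts, FPKM and a normalized signal. The deposited counts were tested with R 4.3.3 and edgeR 4.0.16 (filterByExpr, TMM, 1 group-means model over 20 libraries, glmQLFit and glmQLFTest), which left 26391 genes and 10 residual degrees of freedom. DESeq2 1.42.0 was an alternative. CPM in the rule used summed counts without TMM. SE is the size of a log2 change divided by the square root of F.

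The genes, lists and tests were chosen with earlier results of these data known. Named genes were the leading pair by average difference (at least 1 CPM), by called rise, by called fall in WT, by level and at each edge of the rule. Others are named where 5 or fewer are counted or where singled out after their values were seen. Gene lists and cell type markers by product could not be formed, as the files used here hold no names. Replicate numbers follow accession order and pair nothing.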

Additional observations from a re-analysis of the deposited data

How the results depend on the processing

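No paired analysis was possible because the labels carry no replicate numbers. The 22 genes of the rule became 13 with TMM-scaled CPM, 13 with the authors' normalized values and 13 with median-of-ratios CPM (the last chosen after seeing the data, like the authors' FPKM, with 16), and 5 with a margin of 1.1. Thinning to the smallest total again gave 22, of which 9 were the same genes. With 1 time left out of the rule there were 115, 97, 46, 96 and 44 genes (6, 12, 24, 48 and 96 h). With 1 library left out there were 25 to 42, more by construction, since the rule then asks for less, and over 1.5 times as many (36 to 42) without WT 6 h replicate 1, either OE library at 6 h, replicate 1 of WT or OE at 12 h, WT 48 h replicate 2 or OE 48 h replicate 1. The median average difference of 0.39 ranged from 0.36 to 0.44.

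Leaving out libraries, members called from 6 to 96 h ranged from 4 to 6 higher and 7 to 11 lower in WT and from 2 to 4 higher and 8 to 8 lower in OE. From 24 to 96 h they ranged from 0 to 1 higher and 0 to 2 lower in WT and from 0 to 2 higher and 1 to 3 lower in OE. For any change the ranges were 13 to 16 in WT and 12 to 14 in OE. Calls at the time left out ranged from 0 to 4 at 6 h, 0 to 4 at 12 h, 0 to 3 at 24 h, 0 to 0 at 48 h and 0 to 6 at 96 h. In the libraries of the groups compared alone, members called from 24 to 96 h became 1 lower in WT, and 0 higher and 1 lower in OE, and calls at the time left out became 0 at 6 h and 0 at 12 h. DESeq2 also gave 0 for the 2 higher in OE, as did the fit without a filter on low counts (0), and each called 1 gene at 24 h left out. Of 568 values of named genes under alternatives, 565 kept direction and, where one was made, call. The 568 include the average differences of OE over WT, whose sign the rule fixed and which carry no call. Potri.018G067100.v3.0 from 6 to 96 h in OE ranged from -0.33 to 0.49 when libraries were left out, and was -0.14 without OE 6 h replicate 1 and -0.33 without OE 96 h replicate 2. The causes were not tested. The rarest gene, Potri.004G100800.v3.0, had 5 to 25 counts per library.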

Other observations

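Genes fully separated between the genotypes at all 5 times mostly had mixed directions, which can be ordered in far more ways. With the left-out genes removed, 394 genes had both libraries of one genotype above both of the other at each time. OE was above at all 5 times in 22, at 4 times in 62, at 3 in 146, at 2 in 96, at 1 in 35 and at none in 33. As 3 of 5 times can be picked in 10 ways but all 5 in 1 way, the counts were divided by the number of orders of directions. This gave 22 genes per order for OE above throughout and 33 for OE below throughout. Mixed orders, grouped by the number of times OE was above, had means of 7 to 14.6, with 12.3 over all 32 orders. The orders need not be equally likely, since 14.8% of genes tested were separated with OE above at 48 h and 34.1% at 96 h. The 22 and 33 were chosen by these same values, and no excess was tested.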
